A study of Mus musculus with 6 samples.

Results

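Mitochondria hold their own pool of NADPH. The transcripts of 10 genes were followed here in mouse bone marrow mesenchymal stromal cells (BMSCs) with and without all-trans retinoic acid (RA). Nnt, Idh2, Me3 and Glud1 belong to the supply of NADPH, and Gsr, Gpx4, Txn2, Txnrd2 and Prdx3 to the branches that spend it. Sod2 makes the hydrogen peroxide that these branches remove. The members were found by gene name in the deposited tables, and they took up 11 of the 25722 gene identifiers, because Nnt is listed under 2 of them. Nnt was chosen by its measured values, the counts on its 2 identifiers in these libraries, so its values are a description without a test. The other 9 were selected for their known roles, with earlier results of these data known.

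The BMSCs were adherent cells grown from the tibia and femur marrow of C57BL/6 mice, described as wild-type, and used before the third passage; neither the substrain nor the number of mice is given. They were kept in low-glucose DMEM at 5% O2 and 5% CO2, with a ROCK inhibitor (10 µM), antibiotics (2%) and serum (20%) added. RNA was sequenced as 3 libraries from cells given DMSO, the solvent (control 1 to 3), and 3 libraries from cells given RA (RA 1 to 3). Neither group received IL-17 or IFNγ. The labels give 1 µM RA and 48 h for these samples, whereas the study's methods give a lower dose and a shorter time. The labels speak of fewer biological replicates than the 3 libraries of each group, so the p-values below measure the spread between these libraries, which may in part be technical.

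The libraries held between 14737636 and 18511905 counts, and 3 counts corresponded to between 0.162 and 0.204 CPM in a library, where CPM is the count scaled to a common library total. CPM values below were scaled by TMM, a scaling that sets the bulk of the genes of each library to the same level. The cell type label was checked against markers. All 14 macrophage markers passed the filter on low counts, and their summed level was between 20925 and 23184 CPM in the controls and between 20513 and 21788 CPM after RA. Of 14 mesenchymal markers, 12 passed, with a sum between 2476 and 4732 CPM in the controls and between 1876 and 3736 CPM after RA, while Thy1 stayed at or below 0.49 CPM and Nt5e at or below 1.12 CPM. The values below therefore belong to cultures with abundant macrophage transcripts, and the share of the members' counts that came from each cell type was not tested; in such bulk RNA, fewer cells of a type and less RNA per cell cannot be told apart. The libraries also fell into sets that did not follow the treatment. Control 2, RA 1 and RA 2 held between 1079.6 and 1774 CPM of 14 summed cell division genes, against between 395.0 and 444.6 CPM in control 1, control 3 and RA 3. This split was drawn from the counts, and no label gives a batch. As a check of the treatment, Cyp26b1, a retinoid-degrading enzyme induced by RA, stood at 4.97, 5.96 and 4.68 CPM in control 1 to 3 and at 123.7, 109.6 and 87.1 CPM in RA 1 to 3.

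NADPH is the electron donor that keeps glutathione and thioredoxin reduced, and both of these feed the enzymes that remove peroxides. In mitochondria NADPH is regenerated by nicotinamide nucleotide transhydrogenase (NNT), an inner membrane protein that uses the proton gradient to pass electrons from NADH to NADP+, by the NADP-dependent isocitrate dehydrogenase IDH2 and by further dehydrogenases. The substrain C57BL/6J, from which the mouse reference genome was assembled, carries a deletion of several Nnt exons and makes no working NNT, whereas C57BL/6N does not carry it.

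In GENCODE M21, the annotation used here for positions (GRCm38, the assembly also called mm10), both Nnt identifiers lie on the minus strand of chromosome 13. ENSMUSG00000025453 spans chr13:119335448-119408997 with 5 transcripts, and ENSMUSG00000116207 spans chr13:119335528-119408952 with 1 transcript, Nnt-206. All 3339 exon bases of Nnt-206 were also exon bases of ENSMUSG00000025453, where they made up 47.4% of its 7037 exon bases over all transcripts. The 17 exons of Nnt-206 were contained as an unbroken stretch in the 17 exons of Nnt-202, a transcript of the other identifier with 3464 bases, which has 45 further bases at its start and 80 at its end. Only 3.61% of Nnt-202 therefore lay outside Nnt-206. Nnt-201, also of ENSMUSG00000025453, has 15 exons and lacks exons 8 and 9 of Nnt-202, which hold 342 bases. The sequences across the end of exon 7 are shown because they are where Nnt-201 departs from the other models, with 15 bases before the junction in lower case and 15 bases after it in capitals:
Nnt-202, exon 7 to exon 8: cagctctgattccagGTGGTTTTCTGGTGA
Nnt-206, exon 7 to exon 8: cagctctgattccagGTGGTTTTCTGGTGA
Nnt-201, exon 7 to its exon 8: cagctctgattccagGCCTGACGATCGCAA
The first and second lines are the same letters, from exon 7 (chr13:119381676-119381863) to chr13:119374629-119374774, while Nnt-201 continues at chr13:119369912-119370145. A read over this junction that follows exons 7 and 8 fits both identifiers alike. The counting program and its treatment of reads that fall on several genes are not given in the sources used here.

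The counts of Nnt shifted from one identifier to the other between the libraries. ENSMUSG00000025453 had 598, 466 and 748 counts in control 1 to 3 and 308, 20 and 416 counts in RA 1 to 3, or 41.9, 24.8 and 51.4 CPM against 17.1, 1.27 and 28.4 CPM. ENSMUSG00000116207 had 133, 6 and 0 counts in the controls and 356, 481 and 369 counts after RA, or 9.32, 0.319 and 0 CPM against 19.8, 30.5 and 25.2 CPM. On the first identifier, RA 3 stood above control 2 and the groups overlapped, while on the second every RA library stood above every control. Of all tested genes, 12.6% had all RA libraries on one side of all controls, and since Nnt was picked for these values, nothing is read from its count.

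As a share of all Nnt counts, ENSMUSG00000116207 held 18.2% in control 1 (95% exact binomial interval 15.5 to 21.2), 1.27% in control 2 (0.468 to 2.75) and 0% in control 3, where 0 of 748 counts give an upper limit of 0.492% by the same interval and of 0.401% by the limit of 3 counts. The share was 53.6% in RA 1 (49.7 to 57.5), 96.0% in RA 2 (93.9 to 97.5) and 47.0% in RA 3 (43.5 to 50.6). These intervals cover counting error only and take each count as assigned on its own. How reads that fit both identifiers were assigned is not given, so the intervals concern the counts and not the transcripts. The means were 6.49% ± 10.2 (SD, n = 3) in the controls and 65.5% ± 26.6 (SD, n = 3) after RA. The control mean rested on control 1 and was 0.636% without it, while without each RA library in turn the RA mean was between 50.3% and 74.8%. The interval of control 1 lay above those of the other controls, and that of RA 2, in which the first identifier kept 3.99% of the counts, above those of RA 1 and RA 3, which overlapped.

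**Figure D1:**
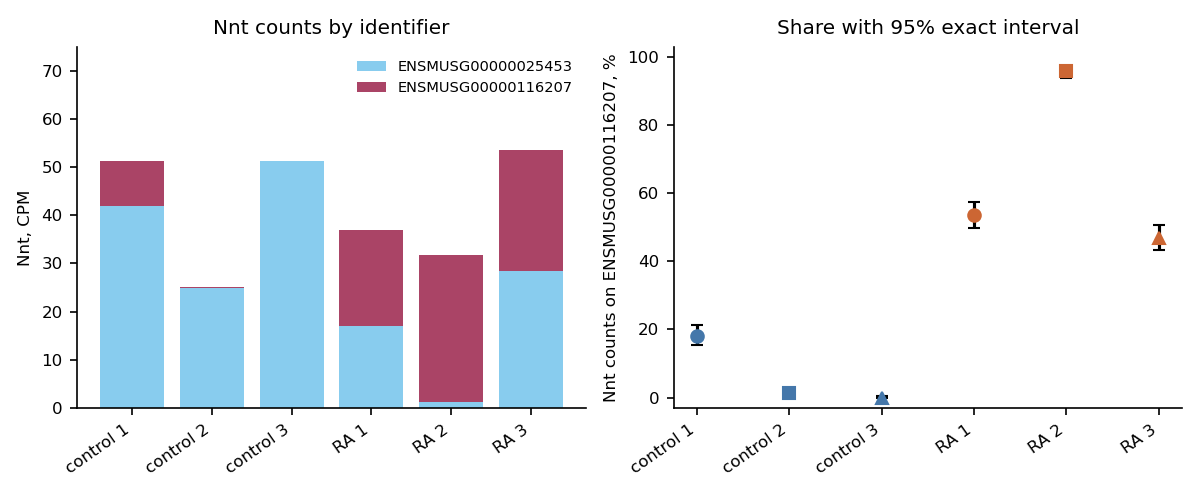
Nnt in the 6 libraries. Left, CPM on the 2 identifiers, stacked from 0. Right, the share of Nnt counts on ENSMUSG00000116207 in percent, with blue for control, orange for RA and bars for 95% exact binomial intervals. The stacked height lay between 25.1 and 53.6 CPM and overlapped between the groups, while the share was at most 18.2% in the controls and at least 47.0% after RA.

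The sum of both identifiers showed no such shift. It was 731, 472 and 748 counts in control 1 to 3 and 664, 501 and 785 counts in RA 1 to 3, or 51.2, 25.1 and 51.4 CPM against 36.9, 31.8 and 53.6 CPM. The mean was 42.6 ± 15.1 CPM (SD, n = 3) in the controls and 40.7 ± 11.4 CPM (SD, n = 3) after RA, a difference on the log2 scale of -0.02 beside a pooled SD of 0.50. Without control 2 this difference was -0.37, without RA 3 it was -0.24, and without each other library it was between 0.03 and 0.15. The groups overlapped, and the order of the libraries was another one: control 2, RA 1 and RA 2 stood between 25.1 and 36.9 CPM and the other 3 libraries between 51.2 and 53.6 CPM. Within the first of these sets RA stood 0.45 above its single control on the log2 scale, and within the second 0.06 above its controls, without a spread for the single library.

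A split between identifiers was not a property of Nnt alone. Under 2 identifiers stood 25 names of the deposited data, and 17 of them had at least 10 counts in every library. Over the 16 names other than Nnt, the share on the higher-numbered identifier varied between the libraries by a median of 10.8 percentage points, from 0.0271 to 61.2 points, beside 96.0 points for Nnt. The 61.2 points belonged to Gcat, with only 85 to 183 counts in a library. Among the 7 names whose shorter model shared at least 90% of its exon bases with the other, as the Nnt models do, the range was 31.0 points for Zc3h11a, 23.1 for Sept2, 23.0 for Hgs and at most 4.21 for the other 4. The groups did not overlap for 2 of the 16 names, Sept2 and Fam220a. Beside this, 12.6% of all tested genes did not overlap in their CPM, so nothing is read from this count. The share of Fam220a lay between 97.6% and 99.7%, with 1 count on its other identifier in control 3 and 9 in RA 1. These genes were named after their values were seen.

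**Figure D2:**
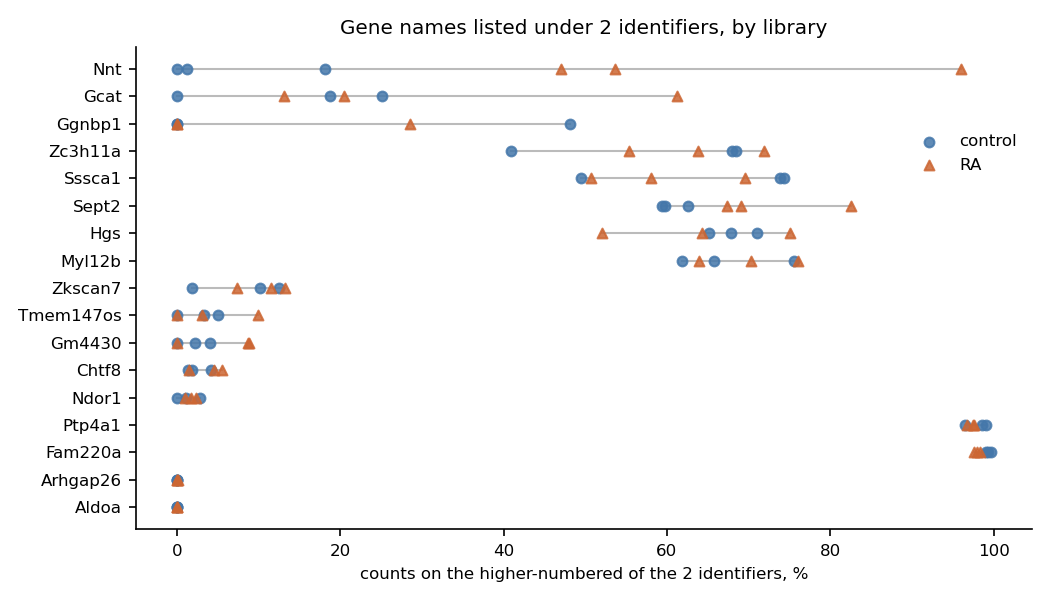
Percent of a name's counts on the higher-numbered of its 2 identifiers, for the 17 names with at least 10 counts in every library. Blue circles are control libraries, orange triangles RA libraries, and the grey line joins the lowest and highest. Nnt spans 96.0 percentage points, Gcat 61.2 and Aldoa 0.0271.

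Genes whose expression has been tied to C57BL/6 substrains were read beside Nnt. Wdfy1 stood between 14.7 and 18.4 CPM, Entpd4 between 34.4 and 44.1, Ide between 70.7 and 102.0 and Fgfbp3 between 0.478 and 2.03 CPM, and 0 of the 4 were called between RA and control, beside 0.0433% of all genes. Wdfy1 was lower in every RA library (16.4, 15.9 and 14.7 CPM) than in every control (17.3, 18.4 and 18.2 CPM), as 1 of the 4, beside the 12.6% of all genes that did not overlap. Xist, the transcript of the inactive X chromosome, was at 742.3 to 1135 CPM in all 6 libraries, while the Y-linked Kdm5d was at 0.425 to 0.894 CPM and Uty had a count in RA 2 only. Whether the mice differed in their Nnt alleles was not tested.

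The genes whose log2 CPM over the 6 libraries was most like each Nnt pattern were listed as a description, and such points share library, depth and treatment. For ENSMUSG00000025453 they were Josd1, Coq2, Pygo2, Rpl28 and Rnf41, with Pearson r between 0.997 and 0.999, all lowest in RA 2. For ENSMUSG00000116207 they were Zfp661, 4930581F22Rik, Dapk2, A930033H14Rik and Rnls (r between 0.980 and 0.988), which all stood at or below 4.23 CPM. For the sum they were Tm7sf3, Gfra4, 9930111J21Rik1 and Sash3 (r between 0.996 and 0.998), all lowest in control 2. An r of at least 0.9 was reached by 844 genes for the first identifier, by 33 for the second and by 1026 for the sum.

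Whether RA moved the members other than Nnt was read from the test across all genes. This was edgeR's quasi-likelihood test with Benjamini-Hochberg adjustment over 13842 genes. The limit of the adjusted p for a call was 0.05, and the smallest change was 1.5-fold. Counts per gene do not separate forms of a protein made for different parts of the cell. All 9 members other than Nnt passed the filter, and 0 were called, beside 0.0433% of all tested genes. At an unadjusted p under 0.05 there were also 0 of 9, beside 5.25% of all genes, and DESeq2 called 0 of 9, beside 0.983%. In 0 of 9 were RA and control libraries free of overlap, beside the 12.6% given above. Their log2 fold changes were between -0.15 and 0.36, with a median of 0.00 beside -0.02 over all tested genes.

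Among the enzymes that supply mitochondrial NADPH besides NNT, Idh2 was nearly level over the libraries. It stood at 43.4, 42.4 and 42.1 CPM in control 1 to 3 and at 44.1, 39.1 and 41.5 CPM in RA 1 to 3, a log2 fold change of -0.04 ± 0.11 (SE; adjusted p = 0.938). Glud1, glutamate dehydrogenase, which can use NADP+ as well as NAD+, stood at 415.7, 429.6 and 417.7 CPM against 434.2, 402.1 and 425.6 CPM (log2 fold change 0.00 ± 0.11, adjusted p = 0.997). Its coefficient of variation over the 6 libraries was 2.74%, the lowest of the members. Me3, the mitochondrial NADP-dependent malic enzyme, had 7, 18 and 15 counts in the controls and 17, 14 and 17 counts after RA, with a log2 fold change of 0.26 ± 0.37 (adjusted p = 0.861). Without control 1 the log2 fold change was 0.00, and without each other library it was between 0.14 and 0.43. At this depth a difference in Me3 of the size of its error was not detectable. Part of its exons (569 bases) is shared with the antisense gene A230065N10Rik, and the strand setting of the counting is not given.

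The glutathione branch spends NADPH. Gsr, glutathione reductase, stood at 112.3, 158.5 and 111.7 CPM in control 1 to 3 and at 196.1, 156.3 and 119.5 CPM in RA 1 to 3, a log2 fold change of 0.30 ± 0.23 (SE; adjusted p = 0.803). The groups overlapped: the high libraries were control 2, RA 1 and RA 2. Gpx4, the glutathione peroxidase that reduces lipid peroxides in membranes, stood at 152.1, 133.4 and 148.5 CPM against 139.2, 133.9 and 182.1 CPM (log2 fold change 0.07 ± 0.15, adjusted p = 0.913). Here control 2, RA 1 and RA 2 were the lowest libraries, and without RA 3 the log2 fold change was -0.08.

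The mitochondrial thioredoxin branch consists of the reductase Txnrd2, the thioredoxin Txn2 and the peroxidase Prdx3, which Txn2 keeps reduced. Txn2 stood at 95, 97.1 and 89.9 CPM in control 1 to 3 and at 90.4, 102.8 and 82.6 CPM in RA 1 to 3, highest in RA 2 (log2 fold change -0.03 ± 0.12, adjusted p = 0.95). Txnrd2 stood at 27.5, 28.3 and 28.5 CPM against 28.2, 20.3 and 27.4 CPM, so that a single library, RA 2, lay below the others (log2 fold change -0.15 ± 0.16, adjusted p = 0.826). Without RA 2 the log2 fold change of Txnrd2 was -0.02. Prdx3 stood at 70.0, 73.2 and 74.7 CPM against 71.0, 61.4 and 77.2 CPM and, like Txnrd2 and unlike Txn2, was lowest in RA 2 (log2 fold change -0.06 ± 0.12, adjusted p = 0.913). RA 2 was also the library with the fewest counts on ENSMUSG00000025453.

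Sod2, the manganese superoxide dismutase of the matrix, which makes the hydrogen peroxide that these branches remove, varied most among the tested members. It stood at 208.2, 435.6 and 221.1 CPM in control 1 to 3 and at 439.7, 424.0 and 243.0 CPM in RA 1 to 3, a log2 fold change of 0.36 ± 0.36 (SE; adjusted p = 0.821). The libraries formed a high set of control 2, RA 1 and RA 2 (424.0 to 439.7 CPM) and a low set of control 1, control 3 and RA 3 (208.2 to 243.0 CPM), with a control and an RA library in each. Within the high set the log2 difference of RA from control was -0.01, and within the low set 0.18. The pooled value rested on control 2: without it the log2 fold change was 0.80 ± 0.28, with an unadjusted p of 0.0265 and an adjusted p of 0.526, and without each other library it was between 0.17 and 0.58. For Gsr the within-set differences were 0.14 and 0.09, and without control 2 its log2 fold change was 0.50 ± 0.22 (adjusted p = 0.526), while without each other library it was between 0.14 and 0.47.

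**Figure D3:**
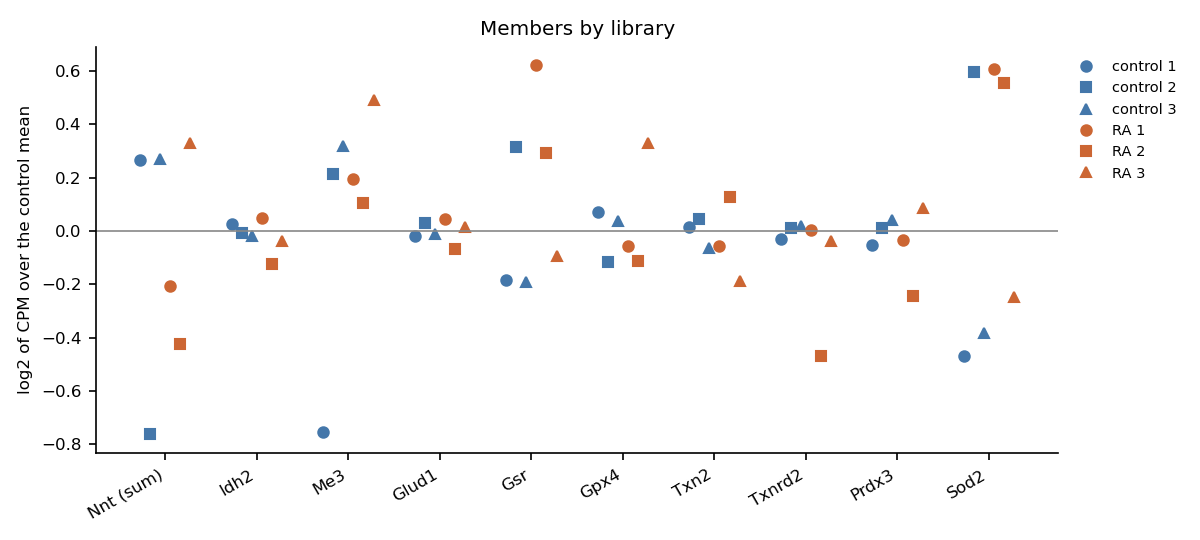
Each member in each library as the log2 of its CPM over the mean of the 3 controls. Blue marks control and orange RA, with circles, squares and triangles for replicates 1 to 3, and the grey line at 0 is the control mean. The 9 members other than Nnt overlap between the groups, as does the sum of both Nnt identifiers. Idh2 and Glud1 lie close to 0, and Sod2 falls into a high and a low set of libraries.

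Sod2 and Gsr were higher, and Gpx4 and the Nnt sum lower, in each of control 2, RA 1 and RA 2 than in each of control 1, control 3 and RA 3. The other 6 members overlapped between these sets. Of all 13842 tested genes, 47.7% did not overlap between the sets, which were drawn from the data, so the division is given as a description. The summed cell division genes split the same way, and so did Shmt2, Mthfd2 and Mthfd1l, enzymes of the mitochondrial one-carbon pathway that also yields NADPH. Mthfd2, for example, stood between 77.0 and 92.5 CPM in the first set and between 37.2 and 40.1 CPM in the second. The part of cell division in the members' values was not tested.

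**Figure D4:**
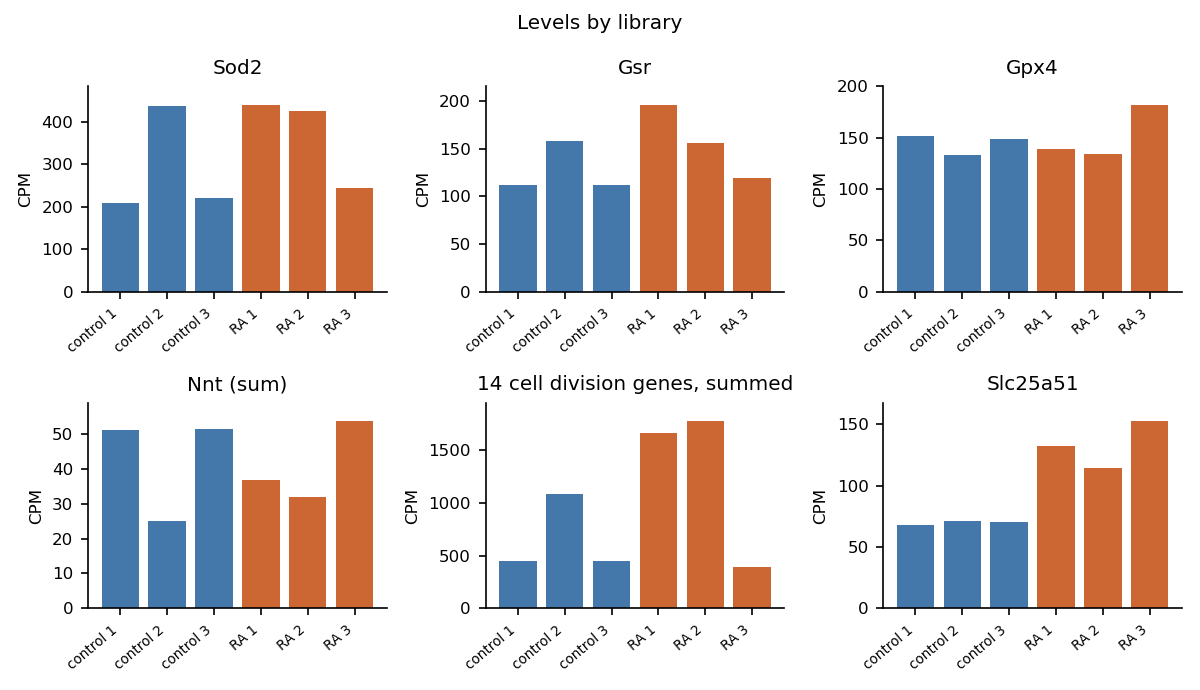
CPM by library, on axes from 0, for Sod2, Gsr, Gpx4, the sum of both Nnt identifiers, 14 cell division genes summed and Slc25a51. Blue bars are control and orange bars RA. Sod2, Gsr and the cell division sum are high in control 2, RA 1 and RA 2, where Gpx4 and Nnt are low, whereas Slc25a51 is at or below 70.8 CPM in every control and at or above 114.5 CPM in every RA library.

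Levels can be set beside each other between genes only per transcript length, taken here as the longest protein-coding transcript of GENCODE M21. On this scale Gpx4 was highest, at 148.9 ± 18.4 CPM per kilobase (SD, n = 6 libraries), followed by Glud1 at 124.1 ± 3.41, and their ranges over the libraries did not overlap. Sod2 (56.1 ± 19.6), Gsr (53.3 ± 12.6), Prdx3 (48.2 ± 3.70) and Txn2 (45.4 ± 3.39) followed, and neighbours in this order overlapped. Idh2 (24.1 ± 1.01) stood apart from its neighbours. The sum of both Nnt identifiers (12.0 ± 3.47) overlapped with Txnrd2 (9.29 ± 1.11), and Me3 was lowest, at 0.203 ± 0.0506 CPM per kilobase.

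The wider supply and use of NADPH was read from 62 further genes in 9 groups, all of which passed the filter. By edgeR's quasi-likelihood test 0 of 62 were called, beside 0.0433% of all genes. An unadjusted p under 0.05 was reached by 3 of 62, Slc25a51, Mecr and Prdx5, a share near the 5.25% of all genes. DESeq2 and edgeR's likelihood ratio test each called 1 of 62, beside 0.983% and 0.968% of all genes. With the library set as a covariate 2 of 62 were called, beside 1.54% of all genes. In 4 of 62 (6.45%, beside 12.6% of all genes) RA and control libraries did not overlap. The median log2 fold change was 0.08, with 36 above 0 and 24 below.

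Slc25a51, the carrier that brings NAD+ into mitochondria, from which the NADP+ of the matrix is made, differed most from the spread. It stood at 67.5, 70.8 and 70.5 CPM in control 1 to 3 and at 132.2, 114.5 and 152.4 CPM in RA 1 to 3, and every RA library lay above every control. The mean was 69.6 ± 1.81 CPM (SD, n = 3) against 133.0 ± 19.0 CPM (SD, n = 3), a log2 fold change of 0.93 ± 0.13 (SE). Its unadjusted p by edgeR was 0.000252 and its adjusted p 0.166, so it did not pass the threshold. DESeq2 (adjusted p = 1.3e-06), the likelihood ratio test (adjusted p = 0.000235) and the fit that held the library set constant (adjusted p = 0.00734) called it, while over all 16 alternatives its adjusted p ranged from 1.3e-06 to 0.849. The log2 difference was 0.80 within control 2, RA 1 and RA 2 and 1.14 within the other libraries, and without any single library it was between 0.82 and 1.03. In the same group, Nadk, the cytosolic NAD kinase, stood at 347.0, 365.7 and 359.8 CPM against 324.4, 320.7 and 330.5 CPM (log2 fold change -0.14 ± 0.10, adjusted p = 0.803).

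Mecr, an NADPH-using reductase of mitochondrial fatty acid synthesis, stood at 45.0, 39.8 and 39.5 CPM in control 1 to 3 and at 31.0, 32.4 and 32.6 CPM in RA 1 to 3. Its log2 fold change was -0.37 ± 0.11 (unadjusted p = 0.0144, adjusted p = 0.753). The 7 genes of its group had log2 fold changes between -0.37 and -0.05, beside 7293 of all 13842 genes below 0, and none was called. With the library set as a covariate Cyp27a1, at -0.05 otherwise, was at 0.57. The most abundant of them, Aldh18a1, stood between 33.3 and 70.1 CPM in the controls and between 27.8 and 53.8 CPM after RA. Prdx5, a peroxiredoxin found in mitochondria and elsewhere, stood at 254.2, 338.7 and 256.1 CPM against 462.9, 425.7 and 314.9 CPM, and the groups overlapped between control 2 and RA 3 (log2 fold change 0.50 ± 0.20, unadjusted p = 0.0385, adjusted p = 0.795). Prdx1, the most abundant of the thioredoxin and peroxiredoxin group, had a log2 fold change of 0.22 ± 0.13 (adjusted p = 0.795).

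Sod3, the extracellular superoxide dismutase, stood at 24.6, 68.0 and 30.1 CPM in the controls and at 27.5, 17.9 and 11.1 CPM after RA, and the groups overlapped (log2 fold change -1.12 ± 0.48, adjusted p = 0.795). It was called only with the library set as a covariate among the 16 alternatives (log2 fold change -1.45, adjusted p = 0.0145; range over the alternatives 0.0145 to 1.0), and without control 2 its log2 fold change was -0.52. The mesenchymal marker sum was likewise highest in control 2 (4732 CPM) and lowest in RA 3 (1876 CPM), and its part in the Sod3 values was not tested. Cat, catalase, the most abundant gene of that group, stood at 407.3, 223.7 and 445.6 CPM against 272.9, 304.9 and 482.3 CPM (log2 fold change -0.02 ± 0.32, adjusted p = 0.989).

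In the remaining groups no gene had an unadjusted p under 0.05. The 5 genes of mitochondrial one-carbon metabolism had log2 fold changes between 0.06 and 0.25, beside 6549 of all 13842 genes above 0, among them Shmt2 at 0.20 ± 0.43 and Aldh1l2, which makes NADPH from formyl-tetrahydrofolate, at 0.23 ± 0.27. The sign turned for 3 of them with the library set as a covariate, to -0.16 for Shmt2, -0.12 for Mthfd2 and -0.45 for Mthfd1l. Of the genes named from other groups, the same covariate turned Cat to 0.27, Pgd to -0.04 and Ogdh to -0.04. Of the 7 genes of cytosolic NADPH supply, Me1, the cytosolic malic enzyme, was at 0.49 ± 0.27 and Pgd, of the pentose phosphate pathway, at 0.05 ± 0.16. Idh1, the cytosolic isocitrate dehydrogenase, was at 0.33 ± 0.19 (adjusted p = 0.795), and at 0.49 with the library set held constant (adjusted p = 0.0317, range over the alternatives 0.0317 to 1.0), under the 1.5-fold needed for a call; it was named after its values were seen. Of the 10 other mitochondrial dehydrogenases and glutaminase, Me2 was at 0.35 ± 0.33 and Ogdh at 0.08 ± 0.16. In the glutathione group, Gstk1, a glutathione transferase, was at 3.29, 2.5 and 3.71 CPM against 4.45, 3.93 and 4.37 CPM, with the RA libraries above the controls (log2 fold change 0.43 ± 0.23, adjusted p = 0.795), and Glrx was at -0.07 ± 0.15. In the NRF2 group, Keap1, the inhibitor of NRF2, was at -0.22 ± 0.19 and Hmox1, a heme oxygenase that NRF2 induces, at 0.28 ± 0.25. With the library set held constant, Me1 was at 0.24, Me2 at 0.04, Hmox1 at 0.07 and Keap1 at -0.11, all closer to 0. By the same fit Gstk1 was at 0.53 and Glrx at -0.16, both further from it.

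**Figure D5:**
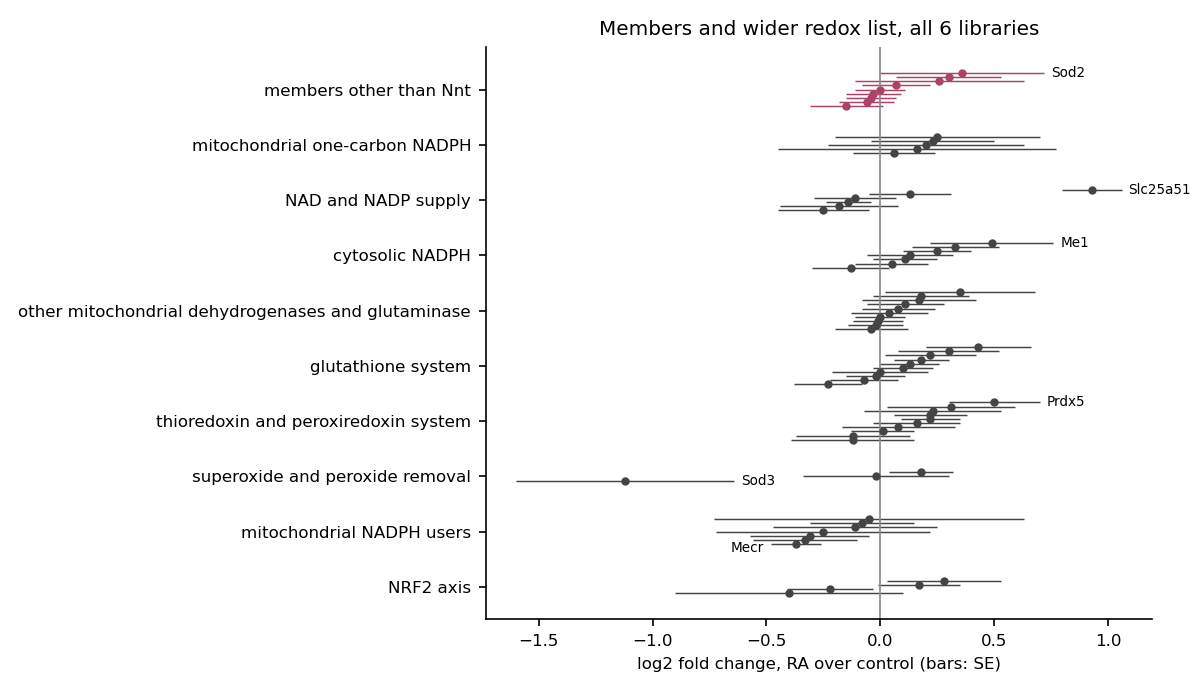
Log2 fold change of RA over control, with its SE as bars, for the 9 members other than Nnt (red) and the 62 genes of the wider list (grey), by group. The members lie between -0.15 and 0.36, and Slc25a51, at 0.93, and Sod3, at -1.12, lie furthest from 0.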

How the data were processed

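RNA of BMSCs was sequenced as 6 libraries, 3 control and 3 RA. The authors deposited a table of raw, unscaled counts per gene for each library. The submitters' processing notes name Bowtie2 2.2.3 and mm10; the counter, its annotation and its rule for reads on several genes are not given in the sources used here. Groups and replicate numbers came from the labels.

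The members and lists were chosen with earlier results of these data known. Of 25722 identifiers, 25706 were found in GENCODE M21 (GRCm38), which gave positions, transcripts and lengths; 24 names that were dates or blank were replaced by its symbols. Counts were analysed in R 4.3.3 with edgeR 4.0.16: TMM scaling, filterByExpr (13842 genes kept) and the quasi-likelihood F test over 6 libraries without covariates, with Benjamini-Hochberg adjustment. Each SE is the log2 fold change divided by the root of F, and a prior count of 2 entered log2 CPM. Nnt was described without a test, and its shares were given 95% exact binomial intervals. Values within library sets, added after seeing the data, are differences of mean log2 CPM.

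Named were all members, Cyp26b1, the substrain, X and Y genes, of each wider group the gene with the smallest p and the one with the highest mean CPM, and the 5 genes most like each Nnt pattern, of which 1 is not reported here; others are said to be named later or serve as examples. The alternatives were DESeq2 1.42.0, the likelihood ratio test, other scalings and filters, same-name rows summed, no fold threshold, each library left out, the replicate block and the library set as a covariate. No pair of libraries of a group agreed within sampling noise (chi-square per degree of freedom 4.81 for control 1 and control 3, between 30.2 and 91.7 for the other pairs), so none was taken as 1 library deposited again; this does not show that they came from separate cultures. Promoters and proteins of the members were not analysed here.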

Additional observations from a re-analysis of the deposited data

How the results depend on the processing

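The count of members called between RA and control, other than Nnt, was 0 in the main analysis and in each of the alternatives, including no fold threshold, and their median log2 fold change stayed between -0.01 and 0.04. The number of all genes called was 6 in the main analysis, 136 with DESeq2, 134 with the likelihood ratio test, 20 without a filter and 213 with the library set added as a covariate, and it was between 0 and 6 with each library left out, with 0 without control 1, 2 without control 2 and 1 without control 3, RA 1 or RA 2. Of the wider list 1 gene was called with DESeq2, 1 with the likelihood ratio test and 2 with that covariate. For the members other than Nnt there were 143 alternative values of the log2 fold change, and 7 changed sign, all near 0. Txn2 was at 0.01 with library size scaling, at 0.01 without control 2 and at 0.04 without RA 3. Idh2 was at 0.01 with library size scaling and at 0.01 without RA 2. Prdx3 was at 0.03 without RA 2 and Gpx4 at -0.08 without RA 3. With each library left out, Txn2 ranged from -0.12 to 0.04, Prdx3 from -0.13 to 0.03, Idh2 from -0.06 to 0.01 and Gpx4 from -0.08 to 0.15; the cause was not tested. The Nnt sum stayed between -0.37 and 0.25 over 12 alternatives.

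The deviations of same-numbered control and RA libraries from their group means had correlations of -0.51, 0.343 and 0.572 for replicates 1 to 3. Over all pairs, the correlation was positive within a library set and negative across the sets. It was 0.653 for control 2 with RA 1 and -0.737 for control 2 with RA 3. Since the sets dominate these values, whether the numbers pair the libraries cannot be told from them. With the replicate block 4 genes were called in all, 0 of the members and 0 of the wider list.

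With 3 libraries a group and library sets that cross the treatment, small differences in the members cannot be told from the spread. The Nnt identifiers share exon bases, and how reads on both were counted is not given, which limits both counts and their sum. Me3, at 7 to 18 counts, is limited by depth.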
